A study of Chlamydomonas reinhardtii with 16 samples.

Results

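The genes described here encode the light-harvesting proteins of photosystem II in the green alga *C. reinhardtii*. They were chosen by locus, with no use of expression values: LHCBM2, LHCBM4, LHCBM5, LHCBM6, LHCBM7, LHCBM8, LHCBM9, LHCB4 and LHCB5. All 9 loci were found among the 17114 gene models measured. LHCBM4 is the gene that the study listed under the name LHCII, and other LHCBM genes were not analysed here. Below, the family and the antenna genes mean these 9 genes or members of them only. RNA was sequenced from 16 cultures of strain dw15.1, grown in Tris-acetate-phosphate medium under cycles of 12 hr light and 12 hr dark for 48 hr before sampling. Each of 8 time points, every 3 hr from ZT 0 to ZT 21 (Zeitgeber time, hours since the last dawn), had 2 independent cultures, called replicates A and B. All groups therefore share strain, medium and light regime, and their labels differ by time of day. Sampling is described as running from ZT 0 to ZT 21, so the age of a culture may run with time of day. These cannot be told apart here. ZT 0 is thus still a dark sample, collected shortly before dawn, and ZT 12 is still a light sample, collected shortly before dusk. The medium holds acetate, on which this alga can also grow in the dark, and each culture is a population of cells of 1 strain.

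Light-harvesting proteins bind chlorophyll and carotenoids in the thylakoid membrane and pass the energy of absorbed light to the photosystems. The LHCBM proteins form the trimers of the major antenna, LHCII. LHCB4 (also called CP29) and LHCB5 (also called CP26) are monomers that lie between the trimers and the core of photosystem II. By sequence, LHCBM4, LHCBM6, LHCBM8 and LHCBM9 belong to type I of the major antenna, LHCBM5 to type II, and LHCBM2 and LHCBM7 to type III. The antenna is encoded in the nucleus and made in the cytosol, and its genes are classic examples of daily rhythms in algae and plants.

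Levels are in FPKM, the fragments of a gene per kilobase of its transcript relative to the mapped fragments of its library, and were brought to a common 75th percentile across libraries, by factors of 0.687 to 1.01. The factors in replicates A and B were lowest at ZT 15 (0.693 and 0.687) and highest at ZT 6 (1.01 and 1). Any fold of ZT 6 over ZT 15 is therefore larger here than with FPKM as deposited. The libraries held 5.87e6 to 2.19e7 fragments in gene models, and the median over all gene models was 1.74 to 2.20 FPKM after scaling, lowest at ZT 6. Replicates of a time point correlated at r of 0.995 to 0.998 on the log2(FPKM + 1) scale, described over all gene models. FPKM is a share of the RNA of a library, so fewer transcripts of a gene per cell and more RNA from other genes cannot be told apart. The authors' mapping kept 1 place for each read. LHCBM2 and LHCBM7 are close copies of each other, as are LHCBM4, LHCBM6, LHCBM8 and LHCBM9, so the split of reads between copies is uncertain, and it was not tested which reads fit several genes.

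In the files' genome version 4.3, type I genes lay together on chromosome 6: LHCBM4 (Cre06.g283950, 4071804 to 4073491), LHCBM9 (Cre06.g284200, 4094515 to 4101451), LHCBM8 (Cre06.g284250, 4101497 to 4103651) and LHCBM6 (Cre06.g285250, 4214720 to 4216568). The type III pair lay on chromosome 12, LHCBM2 (Cre12.g548400) at 7646910 to 7648838 and LHCBM7 (Cre12.g548950) at 7698722 to 7700393. LHCBM5 (Cre03.g156900) was on chromosome 3 at 1138892 to 1141181. The monomeric antenna genes were apart from these, LHCB4 (Cre17.g720250) on chromosome 17 at 2988471 to 2990397 and LHCB5 (Cre16.g673650) on chromosome 16 at 3572704 to 3575085. The positions are printed as the files give them, and whether the start is counted from 0 or 1 is not given in the sources used here. The model of LHCBM9 spans 6936 bases, against 1671 to 2381 bases for the other 8, and ends 46 bases before the model of LHCBM8 begins. Of the 24 other gene models between LHCBM4 and LHCBM6, 21 had a mean of at least 1 FPKM, and of these 21, 1 had its highest mean at ZT 6 and 9 had it at ZT 3. Between LHCBM2 and LHCBM7 lay 11 other models, of which 8 had a mean of at least 1 FPKM and 2 of these were highest at ZT 6 and 0 at ZT 3. Among all genes tested, 15.6% were highest at ZT 6 and 14.9% at ZT 3. The highest mean level of any of these neighbours was 94.3 FPKM on chromosome 6 and 8.18 FPKM on chromosome 12.

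All of these transcripts but LHCBM9 were abundant, and those 8 shared the outline of their daily course: low at the end of the light period and early in the dark, higher again within the dark period, and highest at ZT 3 or ZT 6. Over the 16 libraries LHCBM2 averaged 2269 FPKM and ranked 9th of 17114 gene models by mean level. LHCBM7, LHCB5, LHCB4 and LHCBM6 ranked 15th, 20th, 22nd and 25th. LHCBM5 ranked 83rd, LHCBM4 180th, LHCBM8 678th and LHCBM9 14812th.

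LHCBM2, a type III subunit of the trimers, had the highest level of the family at all time points but ZT 12 and ZT 15. In replicates A and B its FPKM were 2104 and 2289.9 at ZT 0, 4120.0 and 3969 at ZT 3, 5882 and 5816 at ZT 6, 2750.3 and 2503 at ZT 9, 530.3 and 518 at ZT 12, 394 and 411 at ZT 15, 899 and 964 at ZT 18, and 1491 and 1665 at ZT 21. Its close copy LHCBM7 had 1156 and 1297 FPKM at ZT 0, 2615 and 2548 at ZT 3, 4349 and 4129 at ZT 6, 2131 and 1895 at ZT 9, 413 and 391 at ZT 12, 230.1 and 216 at ZT 15, 641 and 626 at ZT 18, and 1021 and 1183 at ZT 21. For both genes the cultures of each time point lay apart from those of the neighbouring time points, except LHCBM7 at ZT 21 and ZT 0, where the cultures overlapped. The highest mean was 14.5-fold the lowest for LHCBM2 and 19.0-fold for LHCBM7.

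Among the type I genes, LHCBM6 was the most abundant. Its FPKM in replicates A and B were 674 and 756 at ZT 0, 2431 and 2270.1 at ZT 3, 2419.6 and 2675 at ZT 6, 1229 and 1155 at ZT 9, 234 and 226 at ZT 12, 261 and 249 at ZT 15, 589 and 571 at ZT 18, and 680.5 and 827 at ZT 21. Replicate A was thus highest at ZT 3 and replicate B at ZT 6, and the lowest mean was at ZT 12, not at ZT 15 as for the other 7 genes that averaged 1 FPKM or more. LHCBM4 had 139 and 114 FPKM at ZT 0, 559 and 519 at ZT 3, 645 and 648 at ZT 6, 352 and 313 at ZT 9, 37.3 and 42.8 at ZT 12, 31.9 and 30.9 at ZT 15, 72.8 and 69.7 at ZT 18, and 110.4 and 96.4 at ZT 21. LHCBM8 had 14.9 and 14.2 FPKM at ZT 0, 71.6 and 101 at ZT 3, 187 and 173 at ZT 6, 75.1 and 61.9 at ZT 9, 10.4 and 11.7 at ZT 12, 9.05 and 6.08 at ZT 15, 15.0 and 12.4 at ZT 18, and 13.5 and 14.9 at ZT 21. LHCBM8 therefore stayed between 6.08 and 15.0 FPKM in all 10 cultures from ZT 12 to ZT 0, and lay above that range in the 6 cultures of ZT 3, ZT 6 and ZT 9. The highest mean was 23.8-fold the lowest for LHCBM8, 20.6-fold for LHCBM4 and 11.1-fold for LHCBM6.

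LHCBM9, a gene known in this alga for its induction under nutrient stress, was near the limit of detection. Its level was 0.0389 to 0.585 FPKM, from 5 to 75 fragments per library. The cultures at ZT 6 had 52 and 75 fragments (0.490 and 0.585 FPKM), those at ZT 3 had 35 and 43 fragments, and those at ZT 12 had 7 and 5 fragments (0.0445 and 0.0767 FPKM). At ZT 6 the exact Poisson 95% intervals reached from 0.366 to 0.642 and from 0.460 to 0.733 FPKM, and at ZT 12 from 0.0179 to 0.0916 and from 0.0249 to 0.179 FPKM. LHCBM9 thus was higher at midday than at dusk beyond counting error, at a level far below that of LHCBM8. The share of its reads that belong to the adjoining LHCBM8 model was not tested. LHCBM9 did not reach a mean of 1 FPKM, and it is not counted in the tests below unless named.

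LHCBM5, the type II subunit, had the flattest course of the family. Its FPKM in replicates A and B were 386 and 431 at ZT 0, 807 and 779 at ZT 3, 1038 and 951 at ZT 6, 666 and 643 at ZT 9, 246 and 236 at ZT 12, 231 and 246 at ZT 15, 389.9 and 398 at ZT 18, and 415 and 431 at ZT 21. The cultures of ZT 12 and ZT 15 overlapped, as did those of ZT 21 and ZT 0, and the highest mean was 4.17-fold the lowest.

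The monomeric antenna genes had a flat top over ZT 3 and ZT 6. LHCB4 had 700.0 and 758 FPKM at ZT 0, 2403 and 2486 at ZT 3, 2460.2 and 2298 at ZT 6, 1080.3 and 986 at ZT 9, 499.5 and 475 at ZT 12, 344 and 341 at ZT 15, 630.1 and 638 at ZT 18, and 857 and 904 at ZT 21. LHCB5 had 679 and 709 FPKM at ZT 0, 2546 and 2578 at ZT 3, 2439 and 2223 at ZT 6, 1099 and 994 at ZT 9, 585 and 571 at ZT 12, 447 and 442 at ZT 15, 752 and 752 at ZT 18, and 1013 and 1021 at ZT 21. Both cultures of ZT 3 lay above both of ZT 6 for LHCB5, and the cultures of ZT 3 and ZT 6 overlapped for LHCB4. The level at ZT 0, at the end of the night, was below that at ZT 21 in every culture for both genes. The highest mean was 7.14-fold the lowest for LHCB4 and 5.76-fold for LHCB5.

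**Figure D1:**
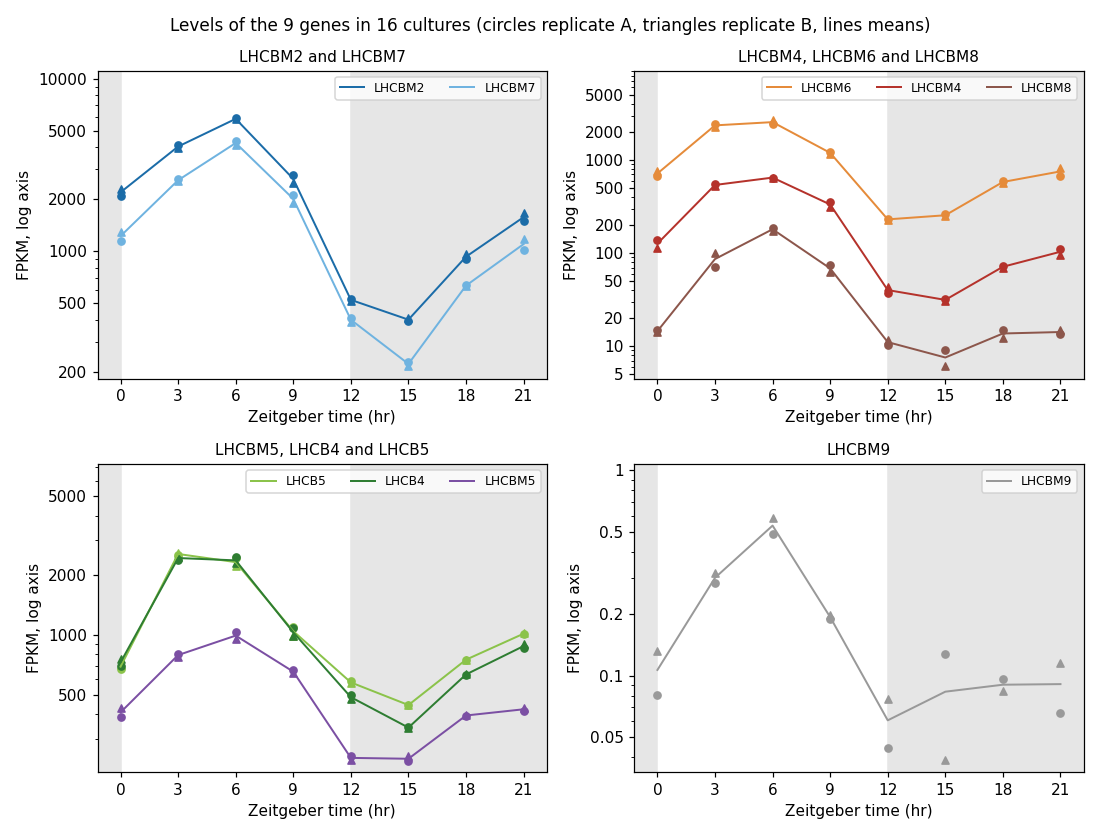
FPKM of the 9 genes (log axes) against Zeitgeber time, with dark hours shaded, circles for replicate A, triangles for replicate B and lines through the means of 2 cultures. The cultures of ZT 6 are the highest for LHCBM2 (5882 and 5816 FPKM), the cultures of ZT 12 and ZT 15 the lowest, and LHCBM9 stays below 0.585 FPKM throughout.

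To ask which of these courses depart from a constant level, a factor of 8 time points was tested with limma on log2(FPKM + 1) over the 12153 gene models with a mean of at least 1 FPKM. All 8 antenna genes that reached this mean differed among time points, with adjusted p from 7.75e-15 (LHCBM2) to 3.08e-12 (LHCBM8), beside 99.2% of all genes tested. A 24-hr wave was likewise called for 8 of 8 genes, beside 82.4% of all genes tested. Both shares are so common in these data that they are no result about the antenna genes, and the sizes tell more. The median amplitude of the wave was 1.59 on the log2 scale for the antenna genes and 0.46 for all genes tested. LHCBM4 had the largest amplitude, 1.98 ± 0.23 (SE), and LHCBM8 had 1.91 ± 0.25. LHCBM7 had 1.70 ± 0.20, LHCBM2 1.69 ± 0.17 and LHCBM6 1.49 ± 0.21. The monomeric LHCB4 and LHCB5 had 1.18 ± 0.16 and 0.998 ± 0.171, and LHCBM5 had 0.84 ± 0.14. Adjusted p of the 24-hr wave ran from 8.79e-07 (LHCBM2) to 0.000243 (LHCB5). The fitted waves peaked at ZT 3.65 ± 0.38 (SE, hr) for LHCBM2 and at ZT 5.40 ± 0.51 for LHCBM8, with the other 6 genes between them. LHCBM2 was at the percentile 96.8 of amplitude among all genes tested, LHCBM4 at 98.3 and LHCBM5 at 78.9.

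A single 24-hr wave did not describe these courses. A 12-hr wave beside the 24-hr one was called for 8 of 8 antenna genes, beside 14.1% of all genes tested, with adjusted p from 4.39e-06 (LHCBM2) to 0.0190 (LHCB5). Its amplitude was 0.52 (LHCBM5) to 0.97 (LHCBM8) on the log2 scale, with a median of 0.72, against 0.16 for all genes tested. The 12-hr wave was also called for 4 of 4 further photosystem I genes and 4 of 9 thylakoid lumen genes. It was called for 2 of 3 photosynthesis genes picked here from the study's known cycling genes. These lists are described at the end. With the 8 libraries of replicate A alone, or those of replicate B alone, 0 of 8 genes passed. The rule that calls a gene cycling by its cyclic score or by a cosine fit called 9 of 9 antenna genes, LHCBM9 included, beside 65.9% of all 17114 gene models. The cyclic score was at its maximum for all 9 and so does not tell them apart, and the permutation p of the cosine fit was 0.00200 (LHCBM2) to 0.00999 (LHCB5). Both methods took replicates A and B as 2 consecutive days, although they are separate cultures. Without the filter on low values LHCBM9 also differed among time points (adjusted p = 8.67e-07 by limma, beside 91% of 16815 genes), with a 24-hr amplitude of 0.20 ± 0.04 (SE) on the log2 scale, beside 74.6% with such a wave. With a pseudocount of 0.1 in addition, LHCBM9 differed among time points (adjusted p = 1.20e-05, beside 91.5% of 16815 genes) and had a 24-hr amplitude of 0.77 ± 0.14, beside 74.7% with a wave.

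**Figure D2:**
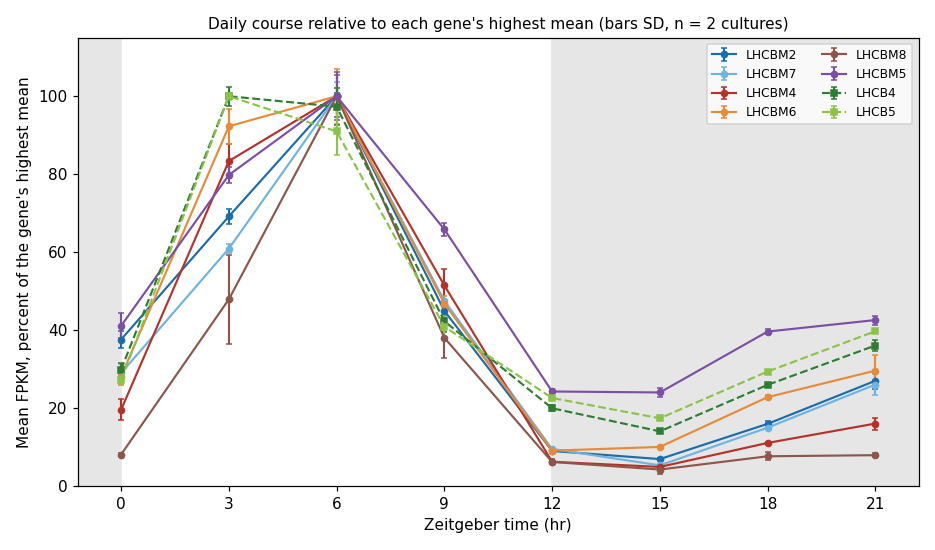
Mean FPKM at each Zeitgeber time as percent of the gene's highest mean, for the 8 antenna genes that averaged 1 FPKM or more (bars are SD of 2 cultures, dashed lines the monomeric LHCB4 and LHCB5, dark hours shaded). At ZT 12 LHCB5 and LHCBM5 stand at 22.6% and 24.2% of their highest mean, and LHCBM8 and LHCBM4 at 6.14% and 6.20%.

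In the first hours of light, ZT 3 against ZT 0, all 8 antenna genes rose, beside 32.6% of all genes tested that were higher and 38.8% that were lower at ZT 3. LHCBM8 rose by 2.47 ± 0.17 (SE) on the log2 scale and LHCBM4 by 2.09 ± 0.10. The ratio of LHCBM8 to LHCBM4 was higher at ZT 3 by 0.38 ± 0.15 (adjusted p = 0.0139 by limma). The spread behind this test was pooled over genes that share the noise of LHCBM4. The step was not tested with the gene's own spread. For 98.4% of all genes tested the ratio to LHCBM4 changed, a share that counts both directions. The call for LHCBM8 was lost without replicate B of ZT 3 (0.08) or replicate A of ZT 0 (0.27). Its change was 0.68 without replicate A of ZT 3. LHCB5 rose by 1.88 ± 0.07, LHCB4 by 1.75 ± 0.07 and LHCBM6 by 1.72 ± 0.09. The type III pair and LHCBM5 had the smallest rises of the 8. The rise was 1.08 ± 0.09 for LHCBM7, 0.96 ± 0.07 for LHCBM5 and 0.88 ± 0.08 for LHCBM2, and with FPKM as deposited that of LHCBM2 was 0.57. The adjusted p of these 8 rises was at most 7.08e-08 by limma.

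Between ZT 3 and ZT 6 the family parted. Higher levels at ZT 6 were called for 5 of 8 genes and lower ones for 0, beside 33.7% of all genes tested that were higher and 36% that were lower: LHCBM8 by 1.07 ± 0.17 (SE), LHCBM7 by 0.72 ± 0.09, LHCBM2 by 0.53 ± 0.08, LHCBM5 by 0.32 ± 0.07 and LHCBM4 by 0.26 ± 0.10 on the log2 scale. The remaining differences were 0.11 for LHCBM6 (95% interval -0.08 to 0.31), -0.04 for LHCB4 (-0.19 to 0.11) and -0.14 for LHCB5 (-0.28 to 0.01). LHCBM4 lost its call with FPKM as deposited (0.16, adjusted p = 0.183) and without replicate B of ZT 3 (0.21, adjusted p = 0.158). It also lost its call, at a change of nearly the same size, without replicate A of ZT 6 (0.27, adjusted p = 0.0787) or replicate B of ZT 6 (0.26, adjusted p = 0.0847). With FPKM as deposited, LHCB4 and LHCB5 were called lower at ZT 6 (-0.14 and -0.24), and LHCB5 also without replicate A of ZT 6 (-0.20, adjusted p = 0.0337).

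From midday on, still in the light, all 8 genes fell. At ZT 9 they were lower than at ZT 6, beside 28.8% of all genes tested that were lower and 34.6% that were higher, by 0.60 ± 0.07 (SE) on the log2 scale for LHCBM5 (0.28 with FPKM as deposited) and by 0.96 to 1.39 for the other 7. At ZT 12 all 8 were lower than at ZT 9, beside 42.8% of all genes tested that were lower and 28.6% that were higher, and here the sizes spread widely. The log2 change was -3.02 ± 0.10 for LHCBM4, -2.52 ± 0.17 for LHCBM8, -2.37 ± 0.09 for LHCBM6, -2.32 ± 0.08 for LHCBM2 and -2.32 ± 0.09 for LHCBM7. LHCBM5 fell by 1.44 ± 0.07, LHCB4 by 1.08 ± 0.07 and LHCB5 by 0.85 ± 0.07. Adjusted p of the 16 falls was at most 3.56e-06 by limma. Most of the daily decline was therefore already measured in cultures taken before the lights went off.

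After lights off, ZT 15 against ZT 12, 6 of 8 genes fell further, beside 31.9% of all genes tested that were lower and 34.2% that were higher. LHCBM7 fell by 0.85 ± 0.09 (SE) on the log2 scale, LHCBM8 by 0.51 ± 0.17, LHCB4 by 0.51 ± 0.07, LHCBM2 by 0.38 ± 0.08, LHCB5 by 0.38 ± 0.07 and LHCBM4 by 0.34 ± 0.10. The difference was 0.15 for LHCBM6 (95% interval -0.05 to 0.34), which was called higher with FPKM as deposited (0.23, adjusted p = 0.0251), and -0.01 for LHCBM5 (-0.17 to 0.14). LHCBM4 lost its call without replicate B of ZT 12 (-0.24, adjusted p = 0.0950). LHCBM8 lost its call without replicate B of ZT 12 (-0.44, adjusted p = 0.0856) and without replicate B of ZT 15 (-0.26, adjusted p = 0.201).

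In the middle of the night, with no light, the antenna transcripts rose again, at the step where the fewest genes tested were called. At ZT 18 all 8 antenna genes were higher than at ZT 15. Among all genes tested, 9.25% were higher and 8.89% were lower. Also higher were 4 of 4 photosystem I genes, 7 of 9 thylakoid lumen genes and 3 of 3 known cycling genes described at the end. LHCBM7 rose by 1.502 ± 0.09 (SE) on the log2 scale, LHCBM2 by 1.21 ± 0.08, LHCBM6 by 1.18 ± 0.09 and LHCBM4 by 1.16 ± 0.10. LHCB4 rose by 0.89 ± 0.07, LHCBM8 by 0.79 ± 0.17, LHCB5 by 0.76 ± 0.07 and LHCBM5 by 0.72 ± 0.07. Adjusted p by limma was at most 7.63e-06 for 7 genes and 0.00361 for LHCBM8, which lost its call without replicate B of ZT 15 (0.54, adjusted p = 0.0621) or replicate A of ZT 18 (0.66, adjusted p = 0.0599). The median change was 1.02 for the antenna genes and -0.0050 for all genes tested.

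Late in the night the rise went on for part of the family. ZT 21 was higher than ZT 18 for 6 of 8 genes, beside 25% of all genes tested that were higher and 20.2% that were lower, by 0.79 ± 0.09 (SE) on the log2 scale for LHCBM7, 0.76 ± 0.08 for LHCBM2, 0.53 ± 0.10 for LHCBM4, 0.47 ± 0.07 for LHCB4, 0.43 ± 0.07 for LHCB5 and 0.37 ± 0.09 for LHCBM6. LHCBM6 lost its call without replicate B of ZT 21 (0.23, adjusted p = 0.0725). The difference was 0.10 for LHCBM5 (95% interval -0.05 to 0.26) and 0.05 for LHCBM8 (-0.30 to 0.41). Between ZT 21 and ZT 0 the members differed in direction. As the sampling is described, ZT 0 came first, so its cultures need not be from the dawn after ZT 21. Culture age may thus differ between these time points, and change within the last hours of a single night was not tested. LHCBM2 was higher at ZT 0 than at ZT 21 by 0.48 ± 0.08 and LHCBM4 by 0.28 ± 0.10, beside 33% of all genes tested that were higher. LHCB5 was lower by 0.55 ± 0.07 and LHCB4 by 0.27 ± 0.07, beside 34.2% of all genes tested that were lower. The remaining differences at this step were 0.16 for LHCBM7 (-0.03 to 0.34), 0.03 for LHCBM8 (-0.32 to 0.38), -0.05 for LHCBM5 (-0.21 to 0.10) and -0.07 for LHCBM6 (-0.27 to 0.12). LHCBM4 lost its call at this step with median of ratios scaling (0.22, adjusted p = 0.0707), without replicate A of ZT 0 (0.14, adjusted p = 0.278) and without replicate B of ZT 21 (0.19, adjusted p = 0.185), and LHCBM7 gained one without replicate B of ZT 21 (0.26, adjusted p = 0.0261).

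**Figure D3:**
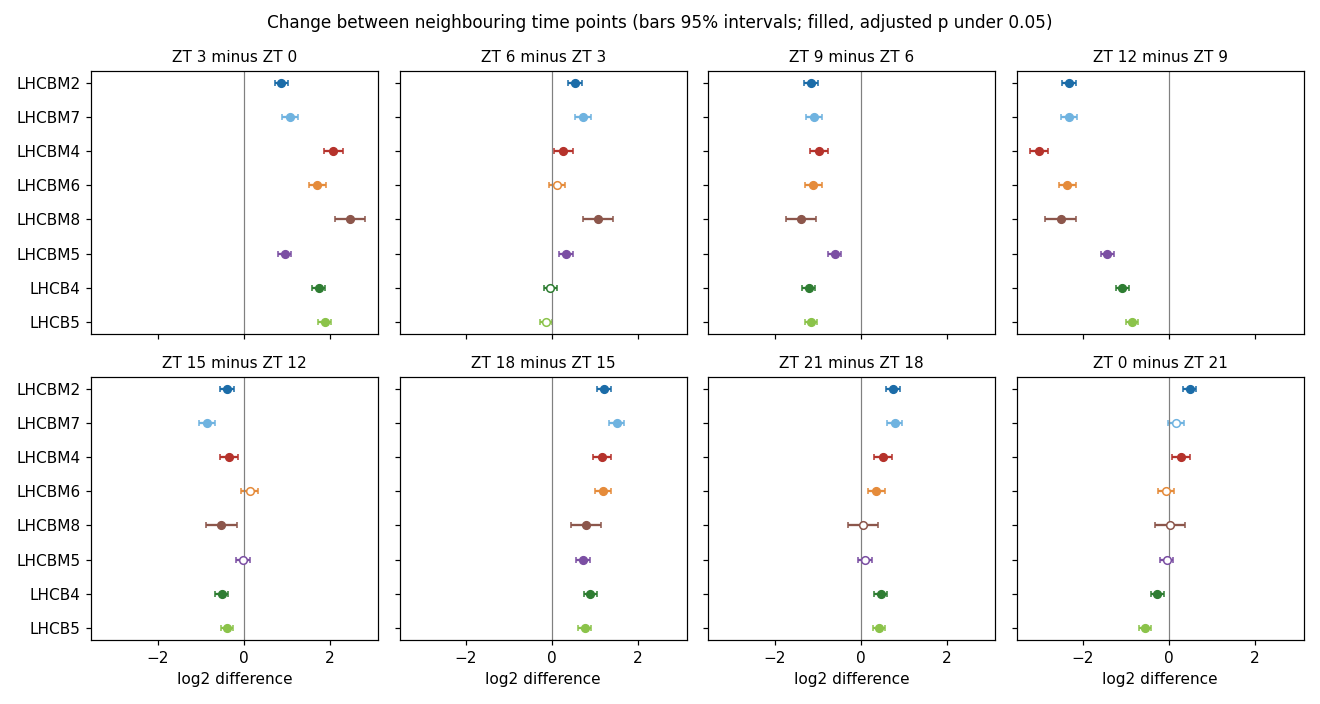
Log2 differences between neighbouring time points, later minus earlier, for 8 antenna genes (bars are 95% intervals from limma, filled points have an adjusted p under 0.05). All 8 points are filled and to the right at ZT 3 minus ZT 0 and at ZT 18 minus ZT 15, and to the left at ZT 9 minus ZT 6 and ZT 12 minus ZT 9.

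Differences between members were tested on ratios within a library, which do not depend on the scaling between libraries apart from the pseudocount. All genes in such a test share the noise of the denominator, so the SE by limma depends on which gene that is. For LHCBM2 and LHCBM4 at ZT 3 against ZT 0, it was 0.18 with LHCBM4 as the denominator and 0.12 with LHCBM2. Single steps were not tested with each gene's own spread, and their p by limma are approximate. The ratio to LHCBM4 differed among time points for 7 of 7 genes, beside 100% of all genes tested, and the ratio of nearly any gene to an antenna gene does so. Single steps are therefore described with LHCB4 as the denominator, beside the share of all genes tested. The same limit holds in part for them. LHCB4 itself changed by -1.08 on the log2 scale at ZT 12 against ZT 9, and most genes tested were called relative to it. Neither single steps of ratios nor the ratios of LHCBM genes to LHCB4 were among the tests set out at the start. At ZT 12 against ZT 9, 6 of 7 genes were lower relative to LHCB4, beside 2.18% of all genes tested. The 6 were the LHCBM genes, with log2 changes of -1.94 ± 0.12 (SE) for LHCBM4, -1.44 ± 0.14 for LHCBM8, -1.28 ± 0.09 for LHCBM6, -1.24 ± 0.07 for LHCBM2, -1.24 ± 0.07 for LHCBM7 and -0.36 ± 0.08 for LHCBM5. LHCB5 was higher relative to LHCB4 by 0.23 ± 0.07 (adjusted p = 0.00428 by limma), as were 91.3% of all genes tested. So each of the 6 tested genes of the trimers lost more of its level at the end of the day than LHCB4, with an adjusted p by limma of at most 0.000127, and LHCB5 lost less.

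At ZT 3 against ZT 0 the ratio to LHCB4 was lower for 3 genes, with log2 changes of -0.86 ± 0.07 (SE) for LHCBM2, -0.79 ± 0.08 for LHCBM5 and -0.67 ± 0.07 for LHCBM7, as it was for 96.1% of all genes tested. LHCBM8 was higher relative to LHCB4 by 0.73 ± 0.14, beside 1.75% of all genes tested. The change for LHCBM4 was 0.34 ± 0.12, which lost its call without replicate B of ZT 0 (0.15, adjusted p = 0.261) or replicate A of ZT 3 (0.27, adjusted p = 0.0733), and was 0.54 without replicate A of ZT 0. For LHCBM6 relative to LHCB4 the change at this step was -0.03 (95% interval -0.21 to 0.16). Within type I, LHCBM8 was higher relative to LHCBM4 at ZT 6 than at ZT 3 by 0.81 ± 0.15 (0.51 without replicate A of ZT 3). Between these time points the ratio to LHCBM4 changed in either direction for 61.3% of all genes tested. The ratio of LHCBM2 to LHCB4 was 3.01 ± 0.01 at ZT 0 against 1.79 ± 0.07 at ZT 21 (SD, n = 2). The log2 difference was 0.75 ± 0.07 (SE), with an adjusted p of 1.29e-08 by limma. Relative to LHCB4, 51.4% of all genes tested were higher at ZT 0 than at ZT 21. LHCB5, lower relative to LHCB4 at this step, shared that direction with 17.7% of all genes tested. In the dark the ratio of LHCBM6 to LHCB4 was 0.744 ± 0.020 at ZT 15 against 0.473 ± 0.005 at ZT 12 (SD, n = 2), and its change was 0.65 ± 0.09 on the log2 scale, beside 71.3% of all genes tested that were higher relative to LHCB4.

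The close copies LHCBM7 and LHCBM2 did not keep a constant ratio. LHCBM7 over LHCBM2 was 0.549 and 0.566 in replicates A and B at ZT 0, 0.635 and 0.642 at ZT 3, 0.739 and 0.710 at ZT 6, 0.775 and 0.757 at ZT 9, 0.779 and 0.754 at ZT 12, 0.584 and 0.526 at ZT 15, 0.713 and 0.650 at ZT 18, and 0.685 and 0.711 at ZT 21. The ratio thus was lowest just before dawn and after dusk, and the cultures of ZT 15 lay below those of both neighbouring time points. It differed among time points (F = 10.5, adjusted p = 1.35e-06 by limma, and F = 20.8, adjusted p = 0.000155 with the gene's own spread). By either test the ratio to LHCBM2 differed for 100% of all genes tested, so the call itself is no result about this pair. At ZT 15 against ZT 12 the ratio of LHCBM7 to LHCBM2 fell by 0.47 ± 0.08 (SE) on the log2 scale, beside 10.4% of all genes tested that were lower relative to LHCBM2. At ZT 18 against ZT 15 it rose by 0.29 ± 0.08, beside 0.14% of all genes tested that were higher relative to LHCBM2. At ZT 0 it was lower than at ZT 21 by 0.32 ± 0.08, beside 66.8% that were lower.

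The ratio of the monomers LHCB5 and LHCB4 also differed over the day. LHCB5 over LHCB4 was 0.970 and 0.936 in replicates A and B at ZT 0, 1.06 and 1.04 at ZT 3, 0.991 and 0.968 at ZT 6, 1.02 and 1.01 at ZT 9, 1.17 and 1.20 at ZT 12, 1.2996 and 1.2984 at ZT 15, 1.19 and 1.18 at ZT 18, and 1.18 and 1.13 at ZT 21. All 8 cultures from ZT 12 to ZT 21 lay above all 8 from ZT 0 to ZT 9. The ratio differed among time points (F = 10.1, adjusted p = 1.42e-05 by limma). With the gene's own spread, F was 71.5 (adjusted p = 1.52e-06). By either test the ratio to LHCB4 differed for 12148 of 12152 genes tested, so the call itself is no result about this pair. LHCB5 over LHCB4 was lower at ZT 0 than at ZT 21 by 0.28 ± 0.07 (SE) on the log2 scale.

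**Figure D4:**
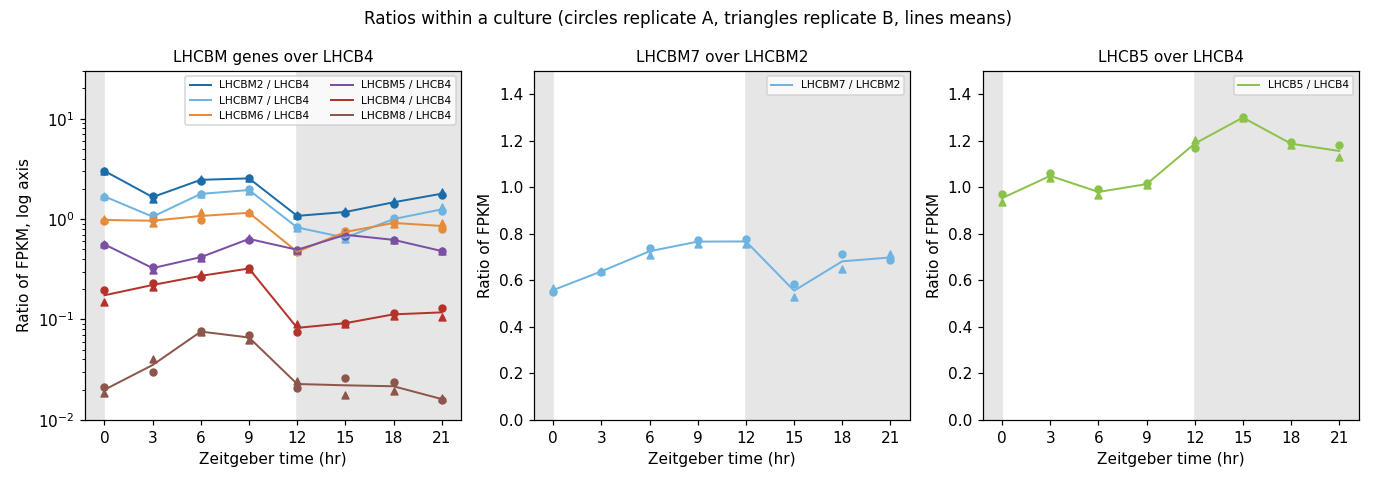
Ratios of FPKM within a culture against Zeitgeber time: 6 LHCBM genes over LHCB4 on a log axis, LHCBM7 over LHCBM2, and LHCB5 over LHCB4 (circles replicate A, triangles replicate B, lines means of 2 cultures, dark hours shaded). LHCBM4 over LHCB4 was 0.0825 at ZT 12 and 0.322 at ZT 9, and LHCB5 over LHCB4 was highest at ZT 15, at 1.299.

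As a result the order of the family by FPKM, which is per length of transcript, changed over the day. At ZT 6 it was LHCBM2 (5849 ± 46, SD, n = 2), LHCBM7 (4239 ± 155), LHCBM6 (2547 ± 181), LHCB4 (2379 ± 115.02), LHCB5 (2331 ± 152), LHCBM5 (994 ± 61), LHCBM4 (646 ± 2), LHCBM8 (180.3 ± 9.7) and LHCBM9 (0.537 ± 0.067). The cultures of LHCBM6, LHCB4 and LHCB5 overlapped there, and the other neighbours in this order lay apart. At ZT 15 LHCB5 was first with 445 ± 3, before LHCBM2 with 403 ± 12 and LHCB4 with 342 ± 2. LHCBM7, next to LHCBM2 at ZT 6, was sixth at ZT 15 with 223 ± 10, after LHCBM6 with 255 ± 8 and LHCBM5 with 238 ± 11. None of the neighbours overlapped at ZT 15, although 2 cultures per time point give little room to see an overlap.

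The 9 genes together took 3.99% (95% Wilson interval 3.98% to 4.00%) of the fragments of replicate A at ZT 6 and 3.85% (3.85% to 3.86%) of replicate B. At ZT 15 they took 0.612% (0.608% to 0.617%) and 0.618% (0.614% to 0.622%), intervals that cover counting error only. Within the summed FPKM of the family, LHCBM2 and LHCBM7 made up 30.5% ± 0.3 and 22.1% ± 0.4 at ZT 6 (SD, n = 2), and 20.7% ± 0.7 and 11.5% ± 0.5 at ZT 15. LHCB4 and LHCB5 made up 12.4% ± 0.4 and 12.2% ± 0.6 at ZT 6, against 17.6% ± 0.1 and 22.9% ± 0.1 at ZT 15. LHCBM5 had 5.19% ± 0.22 at ZT 6 and 12.3% ± 0.6 at ZT 15. The summed FPKM of these 9 genes thus held relatively more of the monomers and of LHCBM5 in the early night than at midday. Other LHCBM genes are not part of this sum.

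**Figure D5:**
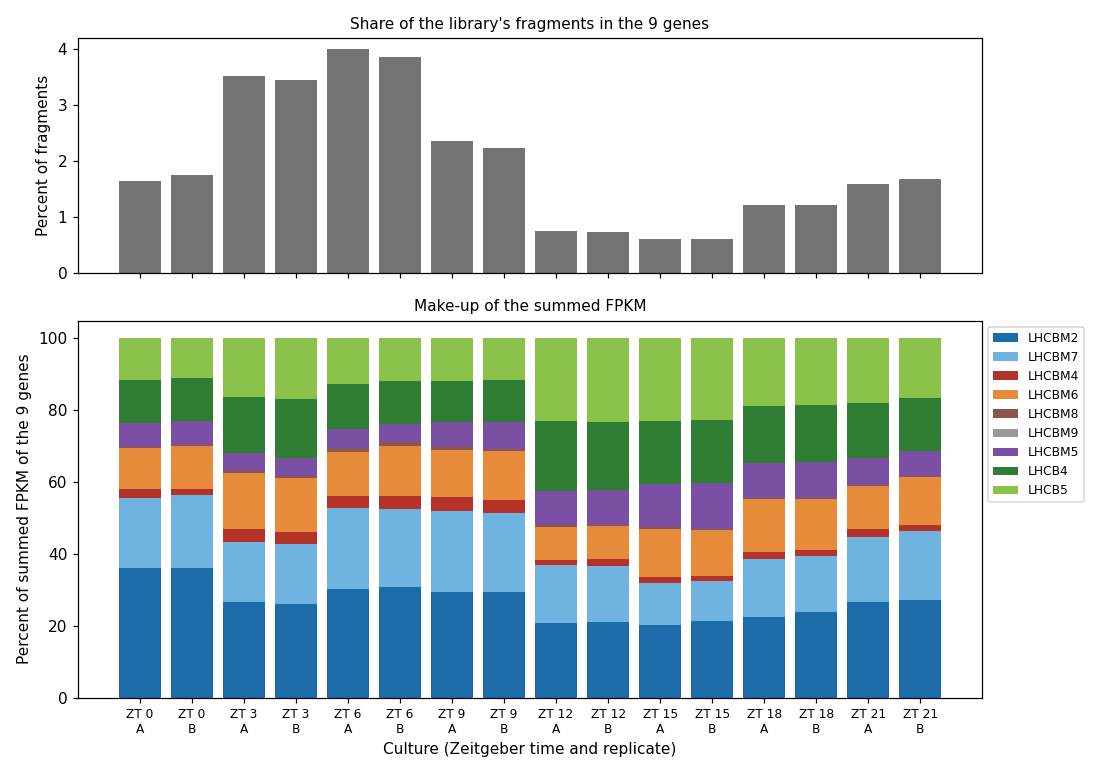
Upper panel, percent of each library's fragments that fall in the 9 genes, and lower panel, percent of the family's summed FPKM in each gene, for the 16 cultures in order of Zeitgeber time. The share of fragments is 3.99% and 3.85% at ZT 6 and 0.612% and 0.618% at ZT 15, and the bands of LHCB4 and LHCB5 are widest at ZT 12 and ZT 15.

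Other photosynthesis genes were described beside the antenna, from term lists of the study and from a choice made here among its known cycling genes. The 4 further genes that the study placed under the photosystem I term were picked on these libraries by the time of their peak. Their direction is thus not independent. All 4 passed the 24-hr test with a median amplitude of 1.04 on the log2 scale, and all 4 were highest at ZT 6 and lowest at ZT 15. Of the 4, 4 were higher at ZT 3 than at ZT 0, 4 were lower at ZT 12 than at ZT 9 and 4 were higher at ZT 18 than at ZT 15. Their median change at ZT 12 against ZT 9 was -0.79, against -2.32 for the 8 antenna genes and -0.12 for all genes tested. The 9 genes under the thylakoid lumen term, picked likewise, all were highest at ZT 3 and all passed the 24-hr test with a median amplitude of 0.75. Like the antenna genes, most of them were higher at ZT 3 than at ZT 0 (9 of 9), lower at ZT 9 than at ZT 6 (9 of 9), higher at ZT 18 than at ZT 15 (7 of 9) and higher at ZT 21 than at ZT 18 (8 of 9). At ZT 6 against ZT 3, 7 of these 9 were lower and 0 higher by limma. At ZT 12 against ZT 9, 6 were lower and 3 higher, and at ZT 15 against ZT 12, 4 were lower and 2 higher. Among the study's known cycling genes, 3 were picked here, and its other aldolase genes were not described. PRK1 (phosphoribulokinase, of the Calvin cycle) had an amplitude of 1.66, FBA3 (fructose-bisphosphate aldolase) of 1.43 and FNR1 (ferredoxin-NADP reductase) of 1.37. All 3 were lowest at ZT 15 and higher at ZT 18 than at ZT 15.

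The gene model whose course was most like the mean course of the 8 antenna genes was Cre32.g781300, with r = 0.993 over 8 time-point means on the log2 scale, and it belongs to the photosystem I list above. Next among other genes came Cre04.g219400 (r = 0.990), Cre07.g326500 (0.989), Cre03.g182551 (0.987) and Cre12.g497300 (0.987), which the reference used here does not name. All 5 were highest at ZT 6 and lowest at ZT 15, and their mean levels ran from 1.75 FPKM for Cre04.g219400 to 3335 FPKM for Cre03.g182551. The antenna genes themselves had r of 0.954 (LHCBM8) to 0.993 (LHCBM4) with a mean course of which each is a part. Between members, r over the 8 means was highest for LHCB4 with LHCB5 and for LHCBM2 with LHCBM7 (both 0.992), and lowest for LHCBM2 with LHCBM8 (0.892). All these values share libraries and scaling, and they are given as a description.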

How the data were processed

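Cultures of *C. reinhardtii* dw15.1 were sampled at 8 time points in 2 replicates, grouped by their labels. Libraries were made with a stranded kit; whether strand was used in counting is not given in the sources used here. TopHat, run by the authors against genome version 4.3 with 1 hit per read, placed the reads, and Cufflinks gave the deposited FPKM of each gene model; program versions are not given in the sources used here. These values differ in their 75th percentile from library to library, and each library was multiplied by the factor that gave it the 75th percentile of replicate B at ZT 6. A deposited table of upper-quartile-normalized values (labelled FPKM) for 50 genes holds none of the 9 genes, and served to check the factors, which were within 0.0109%. The fragments behind a value were recovered from the confidence limits that Cufflinks gives, and were within 0.05 of a whole number for 100% of values under 300 fragments. Files and titles of the ZT 6 replicates carry different letters, and the titles were used. Each library came from a separate culture, and the methods place the replicates of a time point in separate sequencing lanes without saying which.

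The 9 genes, the lists and the tests were chosen with earlier results of these data known. Gene names are those of the rule that chose the genes; all 9 loci matched a locus tag of RefSeq assembly version 5.5, which carries no symbols here, and no coordinates were taken from it. The named genes were the 9 members and the 5 other genes most like their mean course. Relatives by protein sequence, a list set out at the start, were not analysed here.

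For genes averaging 1 FPKM or more, log2(FPKM + 1) was modelled in limma (version 3.58.1, R version 4.3.3). The prior variance followed the mean level, and replicate letters were no term of the model. F-tests of 8 time points, of a 24-hr wave and of an added 12-hr wave, and contrasts of neighbouring time points, were adjusted by Benjamini-Hochberg over all genes tested at 0.05. Log2 changes are on the log2(FPKM + 1) scale, which understates changes of low genes, while folds of the highest over the lowest mean are plain ratios of FPKM. Cycling genes were called at a p under 0.02 by a cyclic score rebuilt here from the study's description, which is not the study's own score and need not equal it, or, in place of COSPOT, by cosine waves of 20 to 28 hr with p from 1000 random orders. Both cycling methods took replicates A and B as 2 consecutive days, as the study did, although they are separate cultures. The limma and cycling steps were tested on simulated data. The labels give the replicate letters no shared source. Over 28 pairs of time points their deviations correlated at r of -0.27 to 0.33, with 10 pairs over 0.1. These values cannot tell whether the letters share a sequencing lane. The alternatives were other scalings, filters and pseudocounts, a replicate block, no trend, leaving out libraries, and each gene's own spread in the ratio tests among 8 time points. The scaling, the cycling calls and the plots used scipy 1.17.1, matplotlib 3.10.9, pandas 2.3.3 and numpy 2.4.6 under Python 3.11.15.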

Additional observations from a re-analysis of the deposited data

How the results depend on the processing

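The counts of antenna genes called moved little between settings. Their differences among time points and 24-hr waves were called for all 8 under every alternative run, and for all 9 where LHCBM9 entered without the filter on low values. Leaving out each library in turn gave 8 genes for both of these and for the steps ZT 3 against ZT 0, ZT 9 against ZT 6 and ZT 12 against ZT 9, 4 to 6 for ZT 15 against ZT 12, 4 to 5 for ZT 6 against ZT 3, 7 to 8 for ZT 18 against ZT 15, 5 to 6 for ZT 21 against ZT 18 and 3 to 4 for ZT 0 against ZT 21. The 12-hr wave was the exception: 8 genes passed with any single library left out, and 0 with all of replicate A or all of replicate B left out, where 8 libraries remain. With the replicate block, which the labels do not support as a pairing, all of these counts and the 2 ratio tests kept their side of the threshold (LHCBM7 over LHCBM2 F = 9.93, LHCB5 over LHCB4 F = 9.49). Over all alternatives F was 6.07 to 20.8 for LHCBM7 over LHCBM2 and 6.43 to 71.5 for LHCB5 over LHCB4. Among single genes, steps and ratios, 78 of 3328 values lost their call, 16 gained one and 0 of the called ones reversed direction. These 3328 values include results not called in the main fit. They also include fits without a library from outside the step compared, where the size of the change stays as it was. The share that lost a call is therefore no measure of how firm a given call is. The fits with each gene's own spread, and without the filter at a pseudocount of 0.1, were chosen after seeing the data. The 24-hr amplitudes of the 8 genes kept their call in 200 of 200 values. Median of ratios scaling moved the libraries against each other by up to 0.25 on the log2 scale, and FPKM as deposited by up to 0.54 from the scaled values. Depth limits LHCBM9 most, with 5 to 75 fragments per library, and then LHCBM8, with at least 221. A count of 3 fragments of LHCBM9 equals at most 0.0460 FPKM.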
